A study of Mus musculus with 8 samples.

Results

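The 7 genes described here carry the MHC class II antigen presentation pathway: H2-Aa, H2-Ab1, H2-Eb1, H2-DMa, H2-DMb1, Cd74 and Ciita. They were taken by name from the 31053 genes counted in each library, and all 7 had a row. Cells of the mouse colonic lamina propria, the connective tissue under the gut epithelium, were counted by droplet 3' single-cell RNA sequencing in 8 libraries. Both genotypes, wildtype and a mutant line, were each studied untreated and after DSS (dextran sulfate sodium), a detergent-like polymer that damages the lining of the colon. The mice were C57BL/6 of 10 to 12 weeks, kept specific pathogen free. The treated mice drank 2% DSS for 7 days and plain water for 3 days, and all mice were taken on day 10. Each of the 4 groups (untreated wildtype, untreated mutant, DSS-treated wildtype, DSS-treated mutant) held 2 libraries from separate animals. Cells from all groups went through a magnetic CD4 T cell isolation kit, so the other cells described below are those that came through an enrichment for T cells.

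Class II molecules display peptides taken up from outside the cell to CD4 T cells. The alpha and beta chains (H2-Aa with H2-Ab1 for I-A, H2-Eb1 for I-E) assemble on the invariant chain Cd74, which blocks the groove until endosomal proteases trim it and H2-DM (H2-DMa with H2-DMb1) exchanges the remnant for peptide. C57BL/6 mice lack a functional I-E alpha chain and so show no I-E on the surface. All of these genes share a promoter module read by RFX, CREB and NF-Y, and the coactivator Ciita, induced by interferon gamma in many cells, switches them on there. In the gut, dendritic cells, macrophages, B cells and lymphoid tissue inducer-like group 3 innate lymphoid cells (ILC3) are known for class II, while mouse T cells make little or none.

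A group of 5 of the genes lies on mouse chromosome 17 (build GRCm38): H2-DMa at 34119541 to 34139101, H2-DMb1 at 34153072 to 34160230, H2-Ab1 at 34257689 to 34269419, H2-Aa at 34282744 to 34287823 on the minus strand, and H2-Eb1 at 34305867 to 34316674. Ciita lies on chromosome 16 at 10480059 to 10528418. On the same strand H2-DMa overlaps CR974462.3 and Cd74 overlaps Mir5107. On the other strand H2-DMa overlaps Brd2, among others, H2-Eb1 overlaps Gm20513 and Ciita overlaps Dexi. Whether counting used strand is not given in the sources used here. The RefSeq promoter table (GRCm38.p6) held windows for 4 of the 7 genes. Of these, 3 are shown. H2-Eb1 and H2-DMb1 were taken because both motifs of the module were matched, and the alpha chain H2-Aa because the Y motif alone was. Each stretch has 110 bases, from 130 to 21 bases before the RefSeq start, 5' to 3' on the gene's strand. Capitals mark matches on the gene's strand to the X box core and to ATTGG, searched as the Y box. Both motifs were searched on either strand.
H2-Eb1 (chr17:34305737-34305846, plus strand): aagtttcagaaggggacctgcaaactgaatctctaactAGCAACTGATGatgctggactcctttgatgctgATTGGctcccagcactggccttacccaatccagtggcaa
H2-DMb1 (chr17:34153061-34153170, plus strand): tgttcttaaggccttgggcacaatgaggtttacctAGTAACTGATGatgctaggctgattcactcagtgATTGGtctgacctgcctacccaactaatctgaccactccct
H2-Aa (chr17:34287844-34287953, minus strand): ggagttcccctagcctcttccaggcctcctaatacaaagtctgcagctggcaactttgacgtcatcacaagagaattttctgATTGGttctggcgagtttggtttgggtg
In H2-Eb1 the X match starts 92 and the Y match 59 bases before the start, with 22 bases between them. In H2-DMb1 the matches start at 95 and 61 bases, with 23 bases between. The RefSeq start used for H2-DMb1 lies inside the gene span given above, so most of its stretch overlaps that span. H2-Aa has the Y match at 48 bases and no letters matching the X motif in its window. The X pattern searched covers only part of the X box, so a missing match does not show that the box is absent. The lower-case ccaat near the end of the H2-Eb1 stretch is the same Y motif on the other strand, 35 bases before the start. H2-DMa has 2 windows, 1 with ATTGG at 198 bases and 1 with neither motif. Among 32851 promoter windows of 300 bases, 37.4% held ATTGG on either strand and 0.968% held the X motif, while 17 (0.0517%) held X followed by Y within 60 bases.

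The 8 tables held 100673 barcodes, of which 88983 were kept, with 29703422 to 40796843 UMIs (unique molecular identifiers, each 1 captured transcript) per library and medians of 1837 to 2851 UMIs per barcode. Among the 96721 barcodes that passed the filters on genes and mitochondrial UMIs, before doublets were left out, 1088 barcode sequences occurred in more than 1 library. Barcodes were clustered without the class II, pathway and interferon genes and all other H2 genes, and each cluster was called macrophage-like, B cell-like and so on from its markers. The ending is left out below, and 2076 barcodes (2.333%) stayed unnamed. The markers set the names, so their levels describe the classes and do not check them: C1qa stood at 3837 CPM (counts per 1000000 UMIs of the class) in macrophages and 62.9 in all other classes pooled, Cd79a at 1338 in B cells and 46.1 elsewhere, Il22 at 15887 in ILC3 and 63.0 elsewhere, and Flt3 at 71.6 in conventional dendritic cells and 1.71 elsewhere. T cells were the largest class, with 56093 barcodes. Macrophages had 7509, B cells 3926, plasma cells 2890, conventional dendritic cells 678 and ILC3 485. A further 2153 barcodes had macrophage and monocyte markers at like strength and are called monocytes or macrophages.

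The 7 genes took 0.832% to 1.06% of all UMIs in the 4 untreated libraries and 0.285% to 0.502% in the 4 DSS libraries. Most of these UMIs came from few barcodes. Macrophages were 8.45% of barcodes and gave 55.3% of the class II UMIs (43.2% to 71.2% across libraries), and monocytes or macrophages gave 10.1% from 2.35% of barcodes. Conventional dendritic cells gave 8.66% from 0.757% of barcodes, about the amount that B cells gave (7.52%) from 4.44%. Unnamed barcodes gave 7.62% (3.57% to 13.1%). They include 4 sub-clusters of the cluster that holds the dendritic cells, with H2-Aa at 3532 to 6286 CPM, so the dendritic cell part depends on which of its sub-clusters were named. The B cell part ran from 2.82% to 20.9%, with the highest in untreated mutant replicate 2, where 12.7% of barcodes were B cells. T cells, 62.9% of barcodes, gave 2.68%, and ILC3 gave 0.489%.

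**Figure D1:**
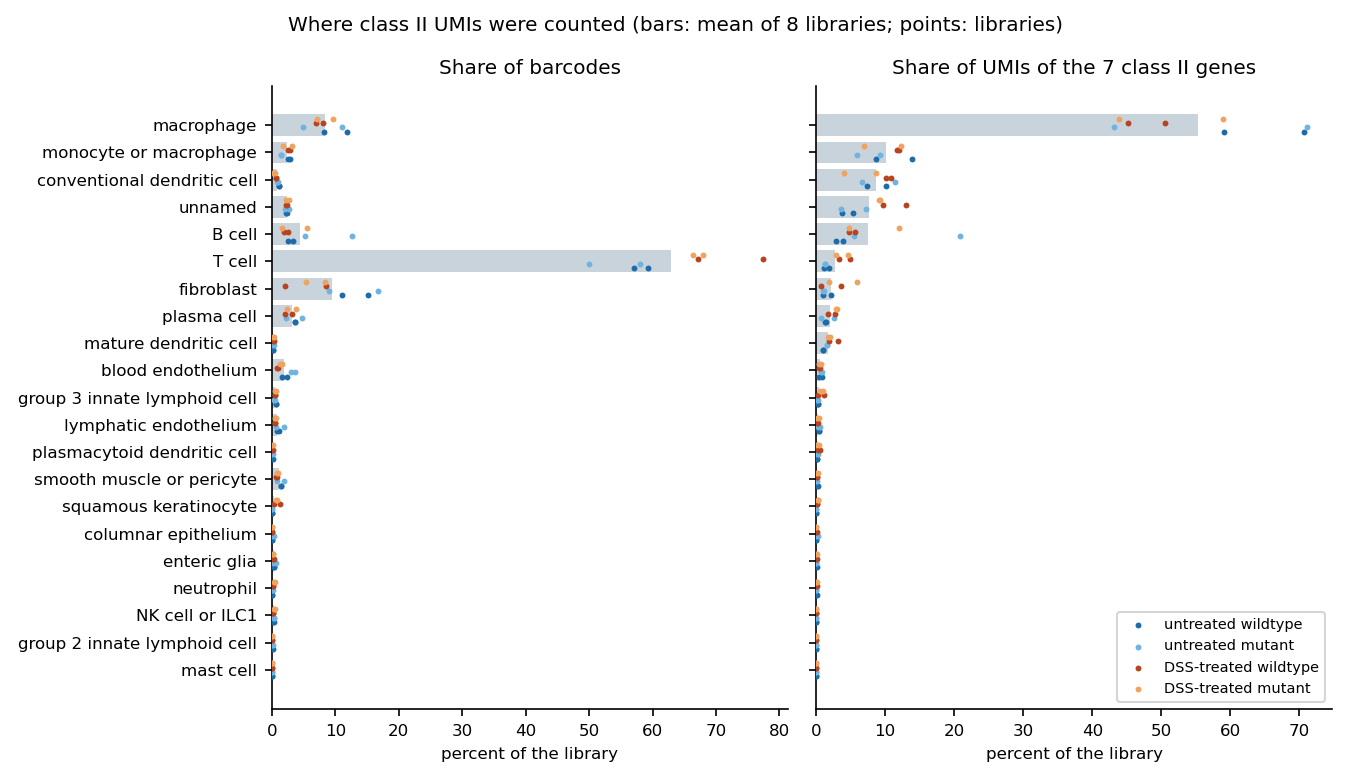
Percent of each library's barcodes and percent of its class II UMIs (all 7 genes) that fell in each cell class, with bars at the mean of 8 libraries and points for single libraries. Macrophages, a mean of 8.45% of barcodes, held 55.3% of the class II UMIs, and T cells, 62.9% of barcodes, held 2.68%.

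Levels below are CPM of the class, averaged over the libraries with 20 or more barcodes of that class, and comparisons of classes are descriptions without a test. The alpha chain H2-Aa stood at 6897 ± 1576 CPM in macrophages (SD, n = 8 libraries), 6137 ± 496 in conventional dendritic cells (n = 7), 5010 ± 1751 in monocytes or macrophages (n = 8) and 4229 ± 1132 in mature dendritic cells (n = 7). B cells followed at 3538 ± 301 and ILC3 at 1366 ± 409 (n = 8 each). Next came lymphatic endothelium at 271 ± 103, enteric glia at 216 ± 58, blood endothelium at 192 ± 77, natural killer cells or type 1 innate lymphoid cells at 150.3 ± 75.9 (n = 7) and fibroblasts at 129 ± 34. T cells had 64.8 ± 25.1 CPM, taken as a background whose source, such as free RNA or mixed droplets, was not tested. Smooth muscle or pericytes had 60.5 ± 42.6 and plasma cells 55.8 ± 12.96. In this order only the steps from B cells to ILC3 and from ILC3 to lymphatic endothelium had ranges that did not overlap, among these 14 classes.

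**Figure D2:**
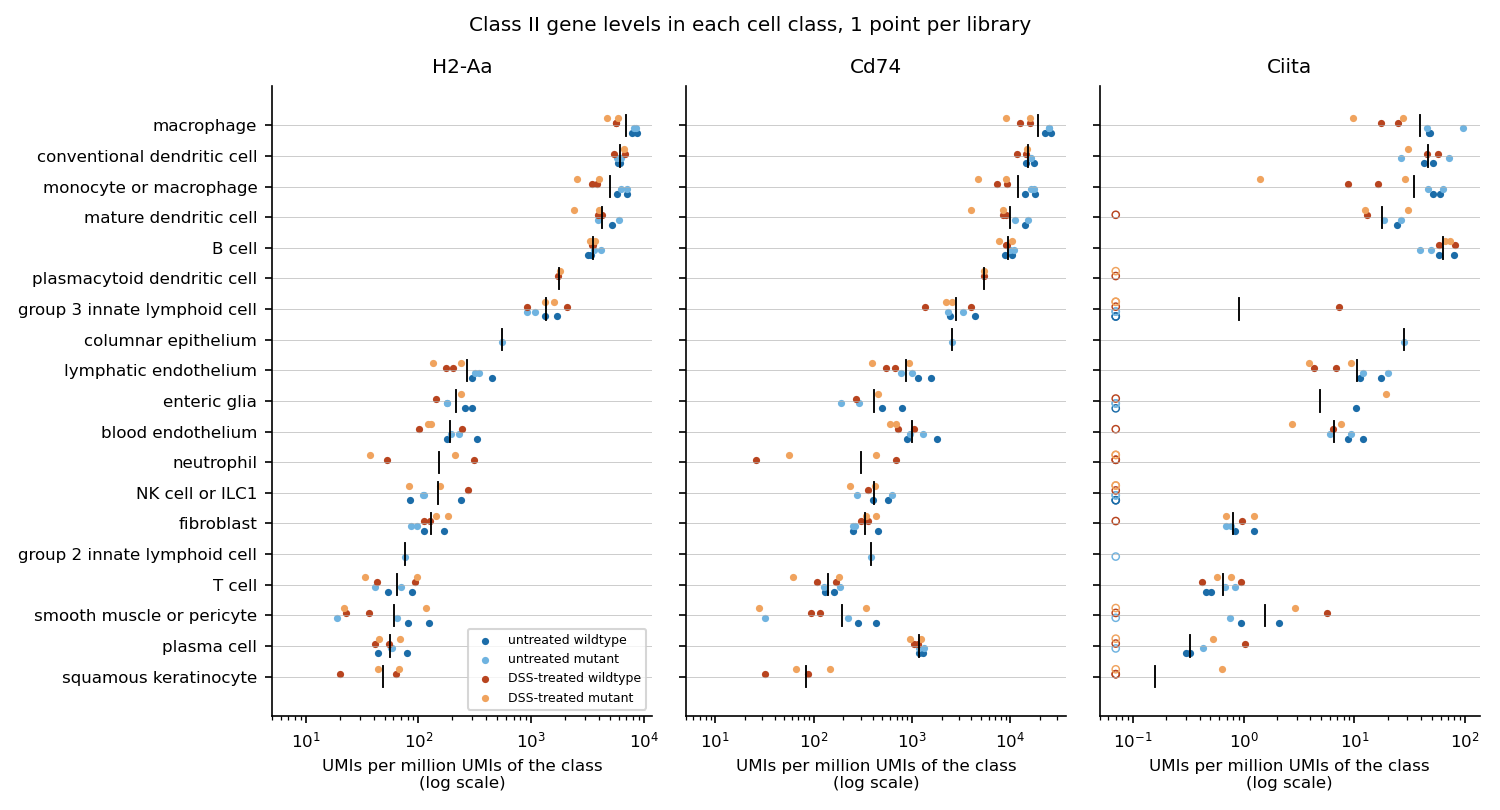
CPM of the class, on a log axis, for H2-Aa, Cd74 and Ciita in each cell class, with 1 point per library. For H2-Aa and Cd74 the ILC3 lie between the antigen-presenting classes and the endothelium. Ciita rests on 1 UMI in ILC3 and 9 in plasma cells, pooled over libraries, too few in ILC3 to place it against T cells.

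The 2 chains of I-A did not run in 1 proportion. Conventional dendritic cells had the highest H2-Ab1, 8502 ± 959 CPM, against 7073 ± 2237 in macrophages, and held 1.42 H2-Ab1 UMIs per H2-Aa UMI (median of libraries, range 1.20 to 1.56). Macrophages held 1.03 and B cells 0.997. ILC3 held 0.655, and their range of 0.537 to 0.756 lay below the T cell range of 0.799 to 1.14. Plasma cells held 3.32 (2.08 to 3.84) and glia 2.03 (1.04 to 3.24). H2-Eb1 stood at 5879 ± 419 CPM in conventional dendritic cells, 5806 ± 1682 in macrophages, 2439 ± 284 in B cells and 951 ± 263 in ILC3, against 53.2 in T cells.

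Cd74, the invariant chain, was the most counted of the 7 genes in macrophages, dendritic cells and B cells. It reached 18967 ± 6471 CPM in macrophages, 14955 ± 1811 in conventional dendritic cells and 9550 ± 1060 in B cells, then 2817 ± 1009 in ILC3, 1176 ± 121 in plasma cells, 994 ± 384 in blood endothelium and 875 ± 366 in lymphatic endothelium. T cells had 141 ± 42. Most presenting classes held 2 to 3 Cd74 UMIs per H2-Aa UMI, with 2.84 in macrophages, 2.73 in B cells and 2.46 in conventional dendritic cells. Plasma cells held 20.8 (14.96 to 29.8) and blood endothelium 5.14 (4.27 to 7.10).

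Plasma cells, the antibody-secreting end stage of B cells, had Cd74, H2-Ab1 and H2-Eb1 above the T cell level of the same library in 8 of 8 libraries, and H2-Aa in 2 of 8. Their Cd74 CPM was 1177 and 1308 in untreated wildtype, 1178 and 1319 in untreated mutant, 1157 and 1057 in DSS-treated wildtype and 1249 and 963 in DSS-treated mutant libraries. Every library lay above every T cell library, at a median of 8.64 times the T cell level of the same library (6.23 to 15.6). H2-Ab1 was 2.65 times the T cell level (1.98 to 6.19), and its ranges did not overlap either. H2-Eb1 was 1.85 times that level (1.25 to 3.27) and H2-Aa 0.868 times, both with overlapping ranges. Among barcodes thinned to 1000 UMIs, 62.4% of plasma cells and 13.1% of T cells had a Cd74 UMI, and 5.69% and 6.84% had an H2-Aa UMI. Without thinning these were 97.0% and 23.6% for Cd74 and 27.5% and 13.03% for H2-Aa. Thinning left out 6 plasma cells and 3584 T cells, and the median depths of those used were 6727.5 to 11846 UMIs in plasma cells and 1728 to 2433 in T cells, by library.

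ILC3 carried the alpha and beta chains in every library. Their H2-Aa CPM was 1330.2 and 1695 in untreated wildtype, 1086 and 914 in untreated mutant, 913 and 2087 in DSS-treated wildtype and 1315 and 1587 in DSS-treated mutant libraries, from 41 to 76 barcodes each. All 8 lay above all T cell libraries, at a median of 21.7 times the T cell level (13.6 to 47.0). After thinning, 48.9% of ILC3 and 6.84% of T cells had an H2-Aa UMI (63.3% and 13.03% unthinned), with median depths of 2026.5 to 3005 UMIs in ILC3 and 10 ILC3 left out. B cell markers were nearly absent: 5 to 9 of the 9 were at 0 in each library, and their sum was 0 to 37.7 CPM against 4067 or more in B cells. The 9 macrophage markers summed to 134 to 669.6 CPM in the group 3 innate lymphoid cell class and 119 to 577 CPM in T cells. H2-Aa differed between the 2 ILC3 clusters, with 972 CPM in the larger (403 barcodes) and 3120 CPM in the smaller (82 barcodes), while C1qa stood at 40.1 and 51.1 CPM and Cd79a at 4.90 and 3.93.

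The peptide exchange factor H2-DM differed among the presenting classes. H2-DMa stood at 642 ± 88 CPM in conventional dendritic cells, 482 ± 220 in macrophages and 330 ± 45 in B cells, but at 154 ± 91 in mature dendritic cells and 35.6 ± 13.1 in ILC3, against 16.9 ± 2.8 in T cells. Per 100 H2-Aa UMIs, conventional dendritic cells held 10.4 H2-DMa UMIs, B cells 9, macrophages 6.98, mature dendritic cells 3.101 and ILC3 2.65 (1.22 to 4.32). The ILC3 values rest on 3 to 9 H2-DMa UMIs per library. Their CPM range met that of T cells, though ILC3 lay above T cells of the same library in 8 of 8 (1.11 to 3.80 times). T cells held 31.6 H2-DMa UMIs per 100 H2-Aa UMIs (15.6 to 48.4), more than these presenting classes. H2-DMb1 was 546 ± 79 CPM in conventional dendritic cells, 465 ± 132 in macrophages and 89.4 ± 19.6 in B cells. B cells had instead the highest level of the near-identical H2-DMb2, 304 CPM against 111 in conventional dendritic cells and 25.95 in macrophages. Reads shared by the 2 copies could be assigned to either, so this split is uncertain. B cells also led in H2-Ob (325 CPM) and H2-Oa (148 CPM), the chains of H2-O, which inhibits H2-DM. H2-Oa was 44.7 CPM in ILC3 and 4.41 in T cells.

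Ciita was counted rarely, since its UMIs are few in any one cell. Pooled over libraries, B cells had 410 Ciita UMIs, or 54.6 CPM (95% exact Poisson interval 49.5 to 60.2, counting error only). Macrophages had 1320 (46.4, 43.9 to 48.9) and conventional dendritic cells 224 (46.2, 40.4 to 52.7). The endothelium held Ciita too, with 47 UMIs in lymphatic (11.7 CPM, 8.56 to 15.5) and 58 in blood endothelium (7.43, 5.64 to 9.61). T cells gave 87 UMIs among 135056957 (0.644 CPM, 0.516 to 0.795). The ILC3 had 1 Ciita UMI among 1275353 (0.784 CPM, 0.0199 to 4.37), so the upper limit at this depth lies below the intervals of both endothelial classes, whose H2-Aa is lower than that of ILC3. Plasma cells had 9 Ciita UMIs (0.372 CPM, 0.170 to 0.707). No UMI of Ciita was counted in natural killer cells or type 1 innate lymphoid cells, where 3 counts would be 4.96 CPM, or in neutrophils, where they would be 6.94 CPM. Prdm1, the plasma cell repressor of Ciita, stood at 71.6 CPM in plasma cells, 57.0 in T cells and 171 in macrophages.

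Columnar epithelium had 20 or more barcodes in untreated mutant replicate 1 alone (36 barcodes), with H2-Aa at 549 CPM and Cd74 at 2529.9 CPM, so its class II could not be compared between groups. Squamous keratinocytes, with H2-Aa at 48.4 ± 21.3 CPM in 4 libraries, were above T cells of the same library in 2 of 4. Their sub-cluster 35-5 (55 barcodes) had 252 CPM, and the other 4 sub-clusters 13.2 to 33.4.

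DSS was compared with no treatment over both genotypes together, 4 libraries against 4, and then within each genotype, where the design asks about wildtype mice. Counts of each class were summed per library and tested with edgeR's quasi-likelihood test, adjusted (Benjamini-Hochberg) over all genes tested in the class. Errors of log2 fold changes are standard errors taken from the fold change and the F statistic. The p-values measure the spread between single animals. Averaged over genotypes, 23 of the 62 gene and class pairs tested fell and 0 rose (33 had an unadjusted p under 0.05, and DESeq2 called 23 of 57). Of all 83885 gene and class tests, 7.47% fell and 7.44% rose. The 23 calls became 15 without untreated mutant replicate 1 and 14 without untreated wildtype replicate 2.

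All 7 genes fell in macrophages, where 12.5% of 9868 genes fell, and all 7 fell in monocytes or macrophages, where 9.09% of 7020 did. The same 7 fell in both classes with each library left out in turn. The median log2 fold change of the 7 was -1.001 in macrophages, against 0.00 for all genes, and -1.27 in monocytes or macrophages. Macrophage H2-Aa was 7875 and 8732 CPM in untreated wildtype, 8559 and 8087 in untreated mutant, 5675 and 5607 in DSS-treated wildtype and 5922 and 4714 in DSS-treated mutant libraries. The DSS libraries all lay below the untreated ones, and the log2 fold change was -0.77 ± 0.13 (edgeR adjusted p = 0.00387). H2-Ab1 fell by 1.001 ± 0.16 (adjusted p = 0.00337) and H2-Eb1 by 0.92 ± 0.15 (adjusted p = 0.00365) on the log2 scale. Nearly the same held for H2-DMb1, which fell by 0.89 ± 0.14 (adjusted p = 0.00337).

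Cd74 in macrophages was 22586 and 26172 CPM in untreated wildtype, 24794 and 24872 in untreated mutant, 15991 and 12634 in DSS-treated wildtype and 15699.7 and 8987 in DSS-treated mutant libraries. The groups did not overlap, DSS-treated mutant replicate 2 was the lowest, and the log2 fold change was -1.06 ± 0.19 (edgeR adjusted p = 0.00458). The coactivator Ciita had the largest fold change of the 7. It was 46.7 and 48.6 CPM in untreated wildtype, 94.9 and 45.0 in untreated mutant, 24.7 and 17.5 in DSS-treated wildtype and 27.2 and 9.69 in DSS-treated mutant libraries. Untreated mutant replicate 1 stood above the other untreated libraries, and all DSS libraries were below all untreated ones (log2 fold change -1.74 ± 0.29, adjusted p = 0.00382). H2-DMa fell by 1.41 ± 0.21 (adjusted p = 0.00292), with 613 to 730.4 CPM untreated and 161 to 351 after DSS.

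**Figure D3:**
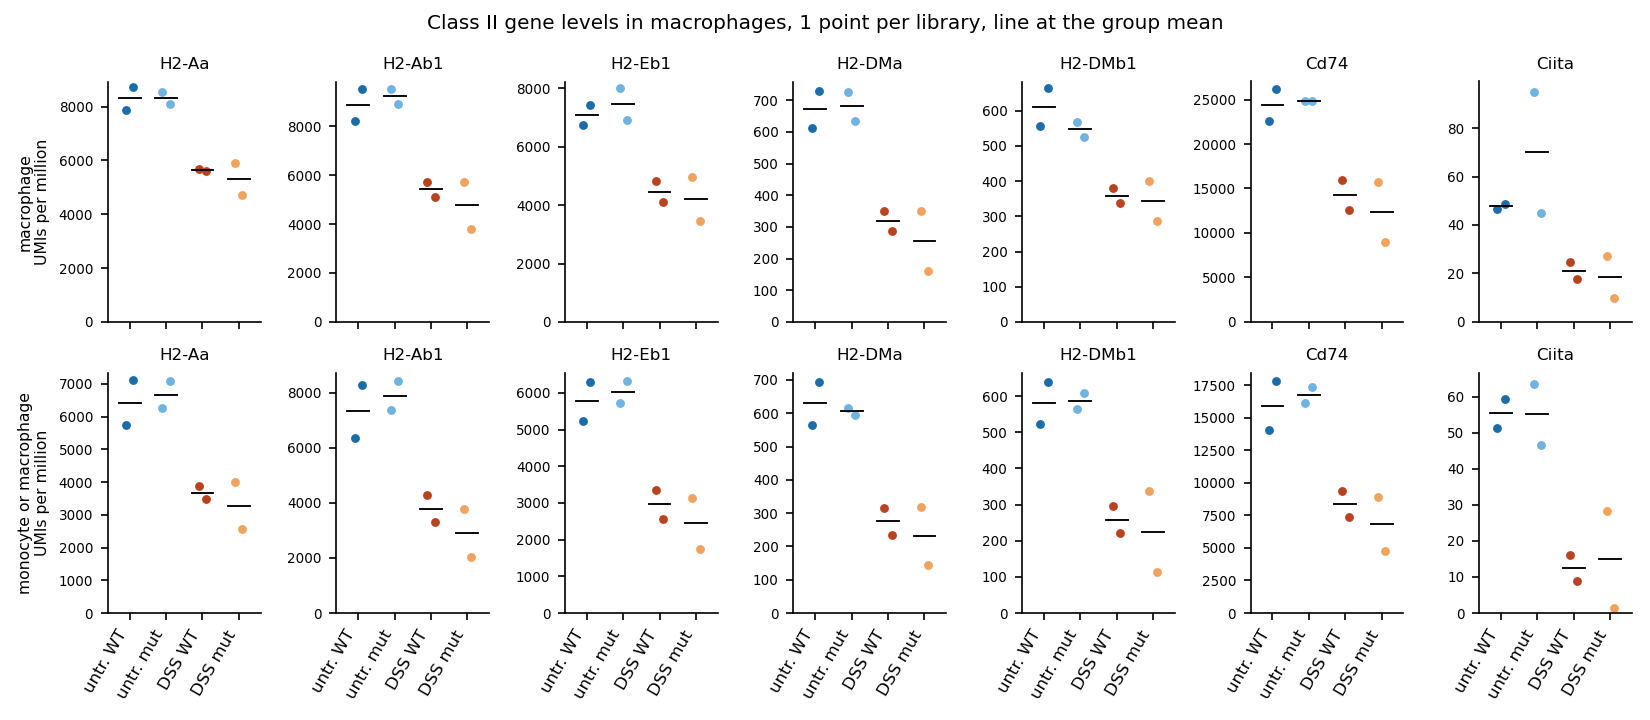
CPM of the class for the class II genes in macrophages and in monocytes or macrophages, with 1 point per library in the 4 groups and a line at each group mean. The DSS-treated libraries lie below the untreated ones, as for macrophage H2-Aa with 4714 to 5922 against 7875 to 8732.

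Ciita had the largest fold change of the 7 in monocytes or macrophages too. Cd74 there was 14026 and 17801 CPM in untreated wildtype, 16133 and 17324 in untreated mutant, 9349 and 7338 in DSS-treated wildtype and 8945 and 4724 in DSS-treated mutant libraries (log2 fold change -1.19 ± 0.16, edgeR adjusted p = 0.000325). Ciita fell by 1.99 ± 0.38 (adjusted p = 0.00312), from 46.6 to 63.6 CPM untreated to 1.41 to 28.4 after DSS. H2-Ab1 fell by 1.27 ± 0.17 (adjusted p = 0.000252), H2-Eb1 by 1.21 ± 0.16 (adjusted p = 0.000246) and H2-Aa by 0.99 ± 0.14 (adjusted p = 0.00036).

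Other features of the macrophages moved with DSS. Their mean depth was 3781 to 5320 UMIs per barcode untreated (5319.9 in the highest) and 2431 to 3516 after DSS, and class II UMIs per barcode went from 176 to 278 down to 68.3 to 104. The 9 macrophage markers summed to 29016 to 42215 CPM untreated and 22891 to 24646 after DSS, with none at 0 in any library. The 8 monocyte markers summed to 6366 to 8116 and 3224 to 5566 CPM. The 8 plasma cell markers summed to 1507 to 8684 CPM untreated and 5829 to 10838 after DSS. The 8 T cell markers summed to 138 to 174 and 189 to 373 CPM. The part of these shifts in the class II result was not tested.

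The makeup of the macrophages shifted as well, and class II was followed within each cluster (alternatives chosen after seeing the data). A cluster led by Apoe and C1qa (cluster 26) made up 68.6% to 88.3% of the macrophages untreated and 17.9% to 36.9% after DSS. A cluster led by C1qa, Saa3 and Thbs1 (cluster 14) went from 5.77% to 17.3% up to 30.6% to 68.6%. H2-Aa in cluster 14 was 4879 to 5282 CPM untreated and 3471 to 4335 after DSS, against 8117 to 8831 and 5850.3 to 6774 in cluster 26, so cluster 14 was the lower in every library. Cluster 28, led by Ccl4 and Il1b, stood at 3.84% to 15.1% untreated and 12.9% to 32.3% after DSS, with overlapping ranges. Within cluster 26 all 7 genes fell, where 7.98% of genes fell: H2-Aa by 0.57 ± 0.11 (edgeR adjusted p = 0.003), Cd74 by 0.79 ± 0.12 and Ciita by 1.72 ± 0.26. All 7 also fell within cluster 28 (4.21% of genes), H2-Aa by 0.50 ± 0.13. Within cluster 14, where 1.72% of genes fell, Ciita, H2-DMa and Cd74 fell (Ciita by 2.38 ± 0.47), and H2-Aa had a log2 fold change of -0.58 ± 0.18 with adjusted p = 0.0947. Pooled over libraries, cluster 14 also held 20115 CPM of Igkc, an immunoglobulin chain, against 1083 in cluster 26 and 6496 in cluster 28. Cd79a, a B cell marker, was 36.0 CPM in cluster 14, 3.69 in cluster 26 and 10.8 in cluster 28. Median depth was 1750 UMIs per barcode in cluster 14, 4274 in cluster 26 and 2972 in cluster 28. The part of depth and of RNA from other cells in the lower class II of cluster 14 was not tested.

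**Figure D4:**
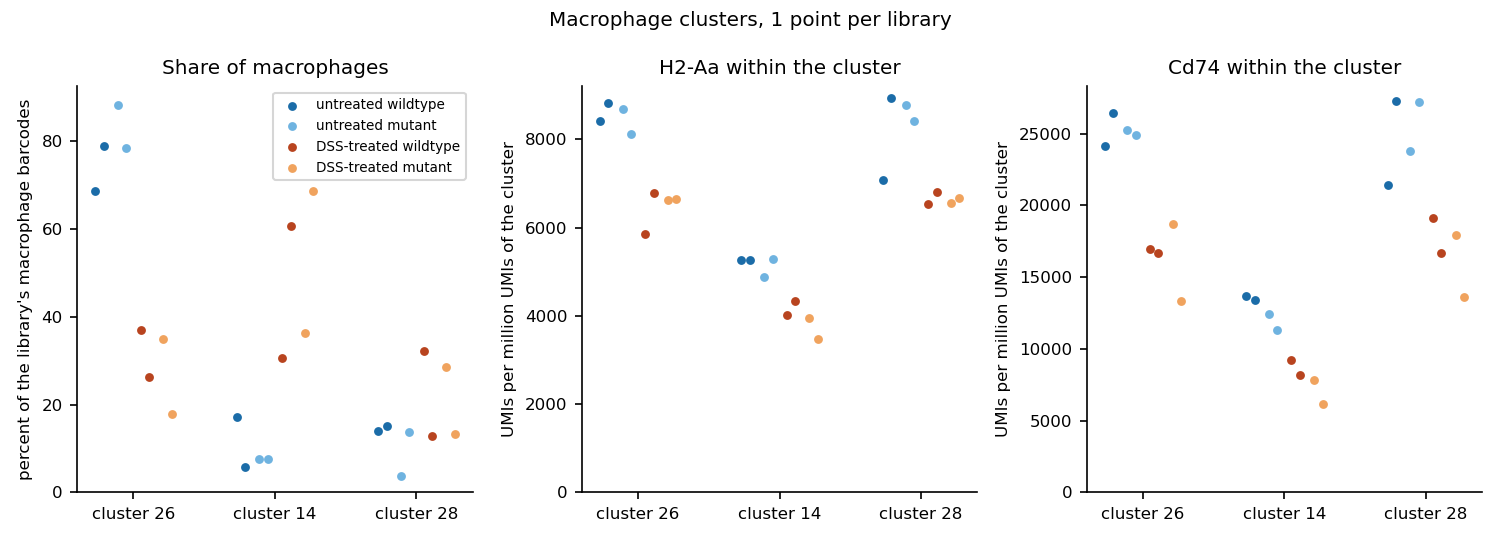
Share of each library's macrophage barcodes in clusters 14, 26 and 28 (left), and H2-Aa and Cd74 in CPM within each cluster (middle and right), with 1 point per library. Cluster 26 goes from 68.6% to 88.3% of macrophages untreated to 17.9% to 36.9% after DSS, and H2-Aa within it is lower after DSS.

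Macrophages with and without a Cd4 UMI, a split that matters in a CD4-enriched preparation, gave overlapping ranges. Both ends of each range were higher in those with a Cd4 UMI. A Cd4 UMI is more easily counted in a deeper barcode, and the part of depth in this split was not tested. All 7 genes together were 47520.5 to 53376 CPM untreated and 24659 to 34042 after DSS in macrophages with a Cd4 UMI, and 45815 to 53291 and 18722 to 33482 in those without.

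In conventional dendritic cells none of the 7 genes passed the test. Conventional dendritic cells were tested for DSS in wildtype only, since DSS-treated mutant replicate 2 held 15 of them. Their H2-Aa was 5896 and 6169 CPM in untreated wildtype, 6290.2 and 5771 in untreated mutant, 5394 and 6837 in DSS-treated wildtype and 6603 in DSS-treated mutant replicate 1. The DSS libraries overlapped the untreated ones, and the log2 fold change in wildtype was 0.00 ± 0.15 (edgeR adjusted p = 0.995). Cd74 in the same test was -0.30 ± 0.14 (adjusted p = 0.342), and none of the 7 genes passed, where 1.02% of genes fell. This test set 2 libraries against 2, a comparison in which none of the 7 passed in macrophages either. Among sub-clusters of conventional dendritic cells, pooled H2-Aa ran from 4868 to 7773 CPM, and the part of their makeup was not tested. In mature dendritic cells, tested for DSS in the mutant only, Cd74 fell by 1.30 ± 0.27 (adjusted p = 0.0305), where 0.688% of genes fell. Its levels were 15129 and 11155 CPM in the untreated mutant and 8454 and 3941 in the DSS-treated mutant, from 21 to 28 barcodes a library.

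In B cells 2 of the 7 genes fell, where 8.42% of genes fell. H2-Ab1 was 3349 and 3719 CPM in untreated wildtype, 3877 and 4295 in untreated mutant, 3323 and 2818 in DSS-treated wildtype and 3329.8 and 2276 in DSS-treated mutant libraries, all DSS libraries below all untreated ones (log2 fold change -0.47 ± 0.11, edgeR adjusted p = 0.0057). H2-Eb1 fell by 0.33 ± 0.11 (adjusted p = 0.031). H2-Aa had -0.14 ± 0.10 (adjusted p = 0.362), Cd74 -0.25 ± 0.10 (adjusted p = 0.101) and Ciita 0.27 ± 0.18 (adjusted p = 0.302). In ILC3 0 of 4 genes tested were called, where 1.36% of genes fell. H2-Aa there had a log2 fold change of 0.20 ± 0.20 (adjusted p = 0.652) and Cd74 one of -0.35 ± 0.24 (adjusted p = 0.476).

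**Figure D5:**
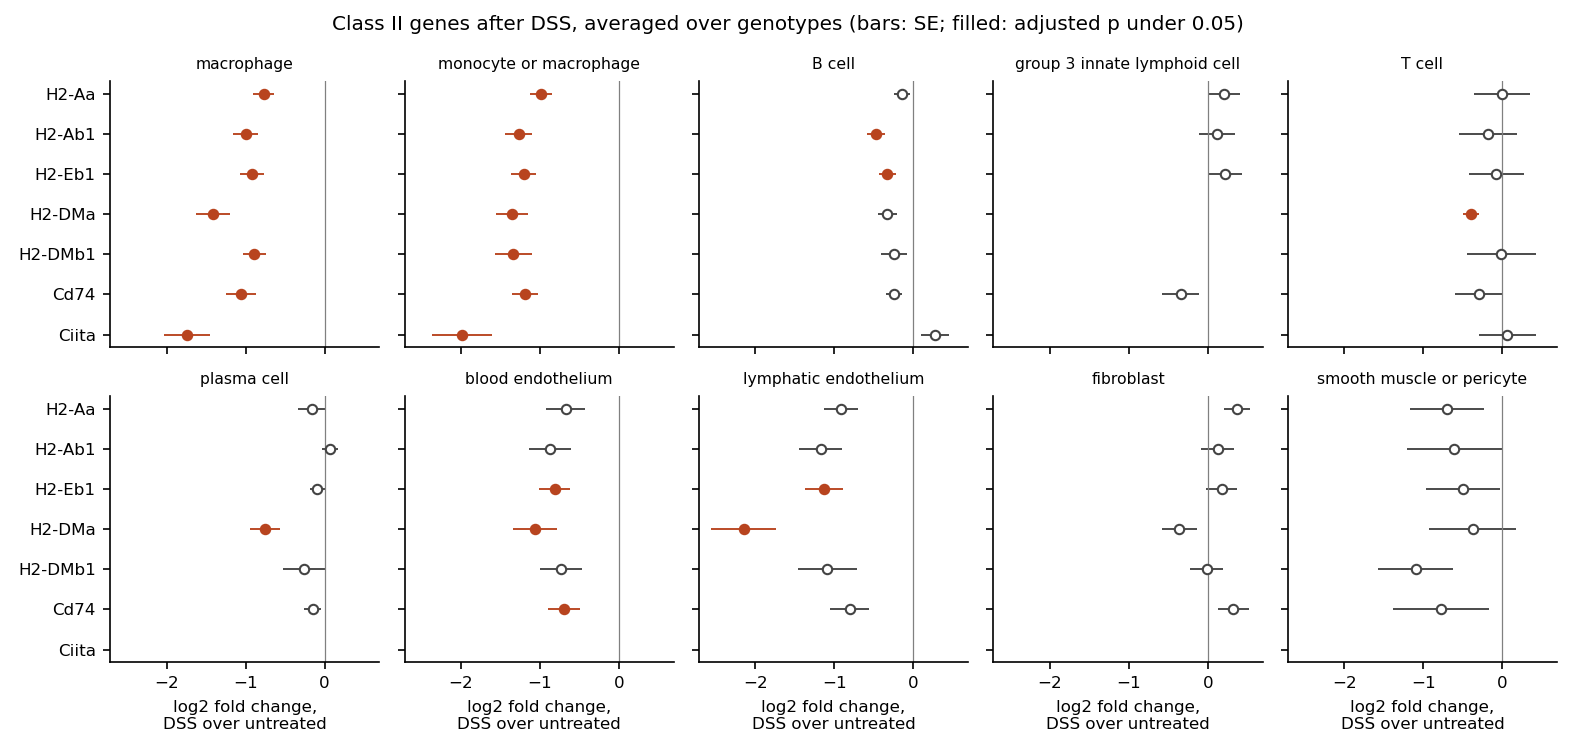
Log2 fold change of DSS over no treatment, averaged over genotypes, for each class II gene in each class tested, with bars of 1 SE and filled points where the adjusted p is under 0.05. All 7 genes are filled and negative in macrophages and in monocytes or macrophages, and the 4 genes tested in ILC3 are unfilled.

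Whether the fall was larger in macrophages than elsewhere was compared by 8 exact two-sided permutation tests, chosen after the values were seen, on the log2 ratio of summed class II CPM between classes of the same library. The ratio of macrophages to B cells was lower by 0.644 after DSS (exact p = 0.0286, the smallest that 4 against 4 can give here). That of monocytes or macrophages to B cells was lower by 0.949 (exact p = 0.0286). Against conventional dendritic cells, macrophages were lower by 0.543 (exact p = 0.0571, the smallest possible with 3 DSS libraries). Against ILC3 they were lower by 0.769 (exact p = 0.143). After adjustment over the 8 tests, p ran from 0.0914 to 0.171. The 2 tests against conventional dendritic cells could not have passed 0.05 with 3 DSS libraries.

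The endothelium and a few other classes also moved. In blood endothelium Cd74, H2-DMa and H2-Eb1 fell, where 4.13% of genes fell. Cd74 was 885 and 1775 CPM in untreated wildtype, 1284 and 948 in untreated mutant, 722 and 1048 in DSS-treated wildtype and 596 and 694 in DSS-treated mutant libraries, with DSS-treated wildtype replicate 2 overlapping the untreated range (log2 fold change -0.70 ± 0.20, edgeR adjusted p = 0.0466). H2-Eb1 fell by 0.82 ± 0.20 (adjusted p = 0.0246). Without cluster 20-8, which held 14 barcodes with C1qa at 599 CPM, 5 of 6 genes fell (4.15% of genes fell, an alternative chosen after seeing the data), H2-Ab1 by 1.17 ± 0.28 (adjusted p = 0.0221) among them. The macrophage marker sum of the whole class was 466 to 588 CPM untreated and 279 to 502 after DSS, and its part was not tested. In lymphatic endothelium, where 0.622% of genes fell, H2-Eb1 fell by 1.13 ± 0.24 (adjusted p = 0.0391) and H2-DMa by 2.15 ± 0.41 (adjusted p = 0.0242). H2-DMa there was 33.5 to 59.8 CPM untreated and 3.38 to 25.4 after DSS. It lay above T cells of the same library in 5 of 8 libraries (0.197 to 3.09 times), with overlapping ranges. In blood endothelium H2-DMa lay above them in 8 of 8 (1.08 to 4.38 times), also with overlapping ranges. H2-DMa also fell in plasma cells, by 0.76 ± 0.19 (adjusted p = 0.0414, 3.44% of genes fell), and in T cells, by 0.39 ± 0.10 (adjusted p = 0.0276, 11.1% of genes fell), at levels under 25 CPM in both. In fibroblasts (12.1% of genes fell) and in smooth muscle or pericytes (1.55%), 0 of 6 genes were called in each.

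Within wildtype mice alone, 2 libraries against 2, 6 of 69 pairs fell and 0 rose (28 with an unadjusted p under 0.05, DESeq2 11 of 60), where 0.452% of all tests fell and 0.54% rose. The 6 were all in monocytes or macrophages (1.27% of genes fell): H2-Aa by 0.86 ± 0.20 (edgeR adjusted p = 0.0303), H2-Ab1, H2-Eb1, H2-DMa, Cd74 by 0.99 ± 0.23 (adjusted p = 0.0361) and Ciita by 2.24 ± 0.54 (adjusted p = 0.0435). H2-DMb1 had -1.24 ± 0.33 (adjusted p = 0.0655). In wildtype macrophages 0.0912% of genes fell, and none of the 7 passed, with log2 fold changes from -0.71 ± 0.19 for H2-Aa (adjusted p = 0.114) to -1.32 ± 0.42 for Ciita (adjusted p = 0.15). The count in wildtype mice was 0 without either untreated wildtype library and 17 without DSS-treated mutant replicate 2.

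Within the mutant, 16 of 72 pairs fell and 1 rose (38 with an unadjusted p under 0.05, DESeq2 15 of 57), where 3.04% of all tests fell and 3.34% rose. The 17 calls became 5 without untreated mutant replicate 1, 9 without untreated mutant replicate 2 and 10 without DSS-treated mutant replicate 2. The 7 genes in macrophages fell (6.65% of genes fell), H2-Aa by 0.84 ± 0.19 (edgeR adjusted p = 0.0214) and Ciita by 2.16 ± 0.41 (adjusted p = 0.0148). In monocytes or macrophages 6 fell (3.38% of genes fell), Cd74 by 1.38 ± 0.23 (adjusted p = 0.00344), and Ciita had -1.74 ± 0.53 (adjusted p = 0.0619). In B cells H2-Ab1 fell by 0.66 ± 0.16 (adjusted p = 0.00878, 5.39% of genes fell). H2-DMa fell in T cells by 0.60 ± 0.15 (adjusted p = 0.0429, 4.05% of genes fell), and Cd74 in mature dendritic cells is given above. The pair that rose was H2-Aa in fibroblasts (0.92 ± 0.24, adjusted p = 0.0392, 7.34% of genes rose). It was not called without fibroblast cluster 19, where H2-Aa was 287 CPM, and had a log2 fold change of -0.55 with doublets kept. The fibroblast sum of macrophage markers was 666 to 880 CPM untreated and 1088 to 1704 after DSS, and its part was not tested. Both genotypes were fitted with 1 shared spread, and a call in 1 genotype alone is no difference between them.

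The genotypes were then compared directly. The interaction of DSS and genotype called 0 of 62 pairs (3 with an unadjusted p under 0.05, DESeq2 0 of 62), and the smallest adjusted p was 0.751. Of all tests, 0.00715% were called. For macrophage H2-Aa it was -0.13 ± 0.26 and for ILC3 H2-Aa 0.54 ± 0.41 on the log2 scale. After DSS, mutant against wildtype called 0 of 76 pairs (6 with an unadjusted p under 0.05, DESeq2 0 of 76), and 0% of all genes. Untreated, 1 of 78 pairs was lower in the mutant (10 with an unadjusted p under 0.05, DESeq2 0 of 73), where 0.0104% of all tests, and 0.148% of those in glia, were lower. It was Cd74 in enteric glia, the supporting cells of the gut nervous system: 500 and 785 CPM in wildtype and 290 and 191 in mutant libraries (log2 fold change -1.29 ± 0.29, edgeR adjusted p = 0.00582). The call was lost without untreated mutant replicate 2 (adjusted p = 0.170), without untreated wildtype replicate 2 (adjusted p = 0.184) and with doublets kept (log2 fold change -0.54, adjusted p = 0.997). The glia held 5355 to 7589 CPM of macrophage markers, mostly Apoe, and 2 to 5 of the 9 markers were at 0 in each library.

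In ILC3 the genotypes were compared by the same tests. The untreated mutant against wildtype log2 fold change in ILC3 was -0.61 ± 0.29 for H2-Aa, -0.75 ± 0.32 for H2-Ab1 and -0.63 ± 0.30 for H2-Eb1, with adjusted p = 0.993 for each (edgeR). The corresponding values after DSS were -0.07 ± 0.28, -0.36 ± 0.31 and -0.08 ± 0.29 (adjusted p = 0.998).

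The other genes of the pathway were counted by group in macrophages, with DSS averaged over genotypes (12.5% of genes fell and 11% rose). Of the 5 accessory chains listed, 3 could be tested and all fell, H2-DMb2 by 1.68 ± 0.26 (edgeR adjusted p = 0.00337), H2-Oa by 1.25 and H2-Ob by 1.80. Their mean macrophage levels were low, at 25.95, 10.96 and 10.4 CPM, against 0.979, 4.41 and 5.57 in T cells. Reads shared with H2-DMb1 could be assigned to H2-DMb2, so its fall may not be separate from that of H2-DMb1. The promoter factors did not move together. Of 7 tested, Creb1 rose by 0.72 ± 0.12 (adjusted p = 0.0037), Nfya rose by 0.63 and Rfxank fell by 0.99. Of the 10 inducers and regulators of Ciita, among them Ifngr1, Irf1 and Irf8, 0 were called. Of the endosomal proteases, 2 of 6 tested rose, Lgmn, which cleaves antigen and the invariant chain, by 0.95 ± 0.17 (adjusted p = 0.00474), and Ctsd by 0.54. Of the costimulation and turnover genes, 1 of 7 rose, Cd80 by 0.75.

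Genes known to respond to interferon gamma were split in macrophages. Of 14 tested, 4 fell and 3 rose. Cxcl9, a chemokine induced by interferon gamma, fell by 1.56 ± 0.17 (edgeR adjusted p = 0.000957), and Psmb8, a subunit of the immunoproteasome, by 1.24 ± 0.17 (adjusted p = 0.0022). Tap1 and Psmb9 fell too, while Gbp5 rose by 1.10, Irgm1 by 0.66 and Irgm2 by 0.66. In monocytes or macrophages, where 9.09% of genes fell and 8.9% rose, 4 of 14 fell and 0 rose, with Psmb8 at -1.35 ± 0.19 (adjusted p = 0.000367) and Cxcl9 at -1.74 ± 0.35 (adjusted p = 0.00451). Blood endothelium, where 4.13% of genes fell, had 6 of 15 lower, led by Gbp7 at -1.55 ± 0.24 (adjusted p = 0.0019).

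In B cells, where 2 of the 7 class II genes fell, 4 of 6 endosomal processing genes tested rose (7.11% of genes rose): Lgmn by 1.66 ± 0.17 (edgeR adjusted p = 5.59e-07), Ctsd by 1.73 ± 0.22, Ctsb by 1.15 ± 0.19 and Ctsl by 0.97 ± 0.27. Mean Ctsb, Ctsd and Ctsl levels were 123, 45.6 and 28.27 CPM in B cells, against 288, 101 and 27.97 in T cells. In macrophages they were 3865, 1040 and 611.5 CPM. Lgmn stood at 187 CPM in B cells, 60.5 in T cells and 2460 in macrophages. The B cell sum of macrophage markers was 789 to 1497 CPM untreated and 920.1 to 1567 after DSS. The part of RNA from macrophages in the B cell rises was not tested. Averaged over genotypes, Lgmn rose in 9 of the 10 classes tested, by 0.77 to 2.33, with the largest rise in T cells (2.33 ± 0.35, adjusted p = 0.00613). Within wildtype mice it was called higher in 2 of 11 classes and within the mutant in 7 of 12.

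Conventional dendritic cells of wildtype mice, where none of the 7 genes was called, differed in some of the listed pathway and interferon genes (1.02% of genes fell and 0.919% rose). Irf8, a factor of dendritic cell development and a regulator of Ciita, fell by 1.80 ± 0.20 (edgeR adjusted p = 8.09e-05). It was also among the markers that named this class, and the part of shifts between sub-clusters was not tested. Cxcl9 fell by 1.81 ± 0.27 (adjusted p = 0.00119) and Cxcl10 by 1.70 ± 0.31 (adjusted p = 0.00566), both chemokines induced by interferon gamma. Lgmn rose by 1.48 ± 0.26 (adjusted p = 0.00459).

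Genes outside the marker, pathway and interferon lists, with 20 CPM or more in a class, were ranked by likeness to the mean of the 7 over 14 classes. Among the top 5 were Fgd2 (Pearson r = 0.919 over class means, a description), Cd83 (0.903), Skap2 (0.903) and Gm6377 (0.902). The classes come from the same libraries and differ in depth. The 7 genes' own correlations with their mean ran from 0.922 for Ciita to 0.989 for H2-Ab1. Each of the 7 is part of that mean, which raises its correlation, so these values are not comparable with those of the genes outside it. Fgd2 stood at 56.8 CPM in conventional dendritic cells, its highest class, and 0.541 in T cells, and Cd83 at 435 and 27.3.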

How the data were processed

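Raw UMI counts, as deposited, came in a separate file for every library (a gene per line and a barcode per column). Cell Ranger 3.1.0, Seurat 4.0.1 and the build mm10 are named in the submitters' processing notes, without their roles. A deposited gene list gave the row names. Barcodes with at least 400 genes and at most 20% mitochondrial UMIs were kept, and in each library the 8% with the highest Scrublet doublet score were left out, since the automatic threshold marked 0% to 2.66%. The authors' list of Cd4 cells was not used as a filter. Barcodes were clustered in scanpy 1.11.5 (1755 genes, 30 components, 15 neighbours, Leiden resolution 2, sub-clusters at 0.6) without the genes compared. Clusters were named from marker lists, with thresholds set after the clusters had been seen. Counts summed per library and class (at least 20 barcodes) were tested with edgeR 4.0.16 (TMM) at an adjusted p under 0.05. DESeq2 1.42.0 was an alternative. The tests were checked on simulated data.

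The genes and lists were chosen with earlier results of these data known. All 7 class II genes are named. Of the pathway lists, up to 4 called genes per class and comparison with the smallest adjusted p are named, and further ones (counts of 5 or fewer, and Tap1, Psmb9, Gbp5, Irgm1, Irgm2 and the genes behind levels) after their values were seen. H2-Ea-ps and Ifi30 were not analysed here, and March1 and March8 were counted under those older symbols. Depth limits classes with few barcodes, and intervals cover counting error only. The mutated gene and some listed genes are not reported here.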

Additional observations from a re-analysis of the deposited data

How the results depend on the processing

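No paired analysis was possible because no label pairs animals across groups: the replicate numbers used here only name the libraries, and the titles give each animal its own number without saying that near numbers mark a litter, batch or day. For DSS in wildtype, 6 pairs became 1 with coarser clustering, which made no class of monocytes or macrophages in which those 6 could be tested. They became 11 with DESeq2, 11 with doublets kept and 24 with no filter on low counts, and 0 to 17 when libraries were left out in turn. With DSS-treated mutant replicate 1 left out there were 15, without DSS-treated wildtype replicate 1 there was 1. For DSS in the mutant, 17 pairs became 29 with no filter and 5 to 21 with libraries left out, 10 without DSS-treated mutant replicate 2, 5 without untreated mutant replicate 1 and 9 without untreated mutant replicate 2. For DSS averaged over genotypes, 23 became 37 with doublets kept, 35 with no filter and 14 to 27 with libraries left out, 15 without untreated mutant replicate 1 and 14 without untreated wildtype replicate 2. For mutant against wildtype untreated, 1 became 0 with DESeq2, 0 with doublets kept, 5 with no filter and 0 to 2 with libraries left out. After DSS, 0 became 1 with no filter and 0 to 2 with libraries left out, and the interaction went from 0 to 6 with no filter. The causes were not tested. The 7 genes lower in macrophages stayed 7 with DESeq2, coarser clustering, doublets kept, no filter, 1000 UMIs or more and each library left out, and were 3 in cluster 14 alone. H2-Aa in fibroblasts in the mutant turned to -0.553 with doublets kept. Of 632 alternatives of the 47 called pairs, 500 kept call and direction, 131 lost the call and 1 reversed. The 47 count a gene and class again in each comparison that called it, and some alternatives leave out a library outside the comparison. The loss depended on the alternative, with 22 of 47 calls lost without untreated mutant replicate 1 and 1 of 47 with 1000 UMIs or more. With doublets kept, 91 of 119 levels stayed within 1 SD. Classes of 20 to 76 barcodes a library, ILC3 and mature dendritic cells among them, limit what could be called.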
